A study of Mus musculus with 10 samples.

Results

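The genes described here are 34 genes of white blood cells and of the B lineage, listed by name and without the parts of the pre-B receptor: surface proteins, actin regulators, kinases and adaptors of antigen receptor signalling, cytokine and chemokine receptors, and transcription factors. For each gene the probeset that carries its symbol alone was taken, with the highest mean where there were several, which gave 1 probeset for each of 32 of the 34 genes among 35557 probesets on the array. Lyn and Il2rg, which have no probeset under a symbol of their own here, were not analysed here. The list of genes was chosen with earlier results of these data known. RNA came from irradiated (1000 rad) wild-type mouse embryonic fibroblasts (MEFs), which are mitotically inactive connective tissue cells used as a feeder layer, and was hybridised to 10 Mouse Gene 1.0 ST arrays on day 9. All dishes held medium with serum and murine IL-3. The 4 groups were MEFs + DMSO (the solvent; 3 arrays), MEFs + nilotinib (an Abl kinase inhibitor, 16 nM; 3 arrays), MEFs + ALL + nilotinib (16 nM; 3 arrays) and MEFs + ALL + DMSO (1 array). The ALL cells were the murine line 8093, precursor B acute lymphoblastic leukemia cells from a mouse with a Bcr/Abl transgene, and they sat above the MEFs behind a Transwell filter with 0.4 µM pores. According to the methods, other dishes of MEFs + ALL + DMSO proved to hold ALL cells and were set aside, which left that group with 1 array.

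Leukocytes share a set of proteins that other tissues largely lack, among them the phosphatase CD45 on their surface and hematopoietic forms of actin regulators that most cells also carry in a general form. In B cells and their precursors, a receptor at the membrane passes its signal through Src-family kinases, Syk and Btk to adaptors and to phospholipase C gamma, while lipid phosphatases such as SHIP1 restrain it. Factors such as EBF1 and OBF-1 then set the genes of the lineage, and the interleukin-7 receptor and CXCR4 tie B-cell precursors to stromal cells like the fibroblasts cultured here.

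Array medians of the log2 signal ran from 6.94 to 7.01, and the arrays correlated with each other at r of 0.975 to 0.995 across probesets, which are not independent replicates. The first principal component held 30.8% of the variance, and on it the lone MEFs + ALL + DMSO array scored -66.9 where the other 9 scored -9.13 to 22.6. MEFs + ALL + nilotinib replicate 2 stood apart on the second. The 12 fibroblast markers had a mean log2 signal of 10.95 to 11.22 on every array, so the labelled cell type was present throughout.

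The leukocyte and B-lineage genes were high in the MEFs + ALL + DMSO array and nearly level on the other 9. Of the 32 genes, 27 were called higher and 0 lower in MEFs + ALL + DMSO than in MEFs + DMSO, by limma at an adjusted p under 0.05, against 6.67% of all probesets called higher and 3.59% called lower. The median difference of the 32 was 1.72 on the log2 scale, with a range from -0.15 to 3.61, beside -0.07 over all probesets. Because the genes were chosen with earlier results of these data known, the excess over all probesets is no independent test. The array lay above all 3 MEFs + DMSO arrays for 30 of the 32 genes (30.4% of all probesets did so). It lay below all 3 for 1 gene, Foxo1, and for 45% of all probesets. It lay above all 9 other arrays for the same 30, Blnk and Foxo1 being the exceptions. The share of all probesets above all 9 was not counted. Of the 30, Ikzf3, Cd22 and Lcp2 exceeded the highest of the 9 by only 0.0019, 0.0151 and 0.0176 and were not called. Across those 9 arrays a gene's signal spanned 0.43 at the median, from 0.21 for Cd37 to 1.35 for Plac8. In the grouping by role, the surface group includes the lysosomal Laptm5. The kinase and adaptor group includes the phospholipase Plcg2 and the phosphatase Inpp5d. Called higher were 7 of 8 genes of the surface group, 6 of 6 actin regulators and 5 of 7 of the kinase and adaptor group. So were both receptors, 5 of 7 transcription factors and both remaining genes, Mzb1 and Plac8. With 1 array in the group, its spread was assumed to be that of the other groups, and RNA of ALL cells that reached the dish cannot be told apart from RNA made by the MEFs. In a bulk sample, fewer cells of a type and less RNA per cell cannot be told apart either.

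**Figure D1:**
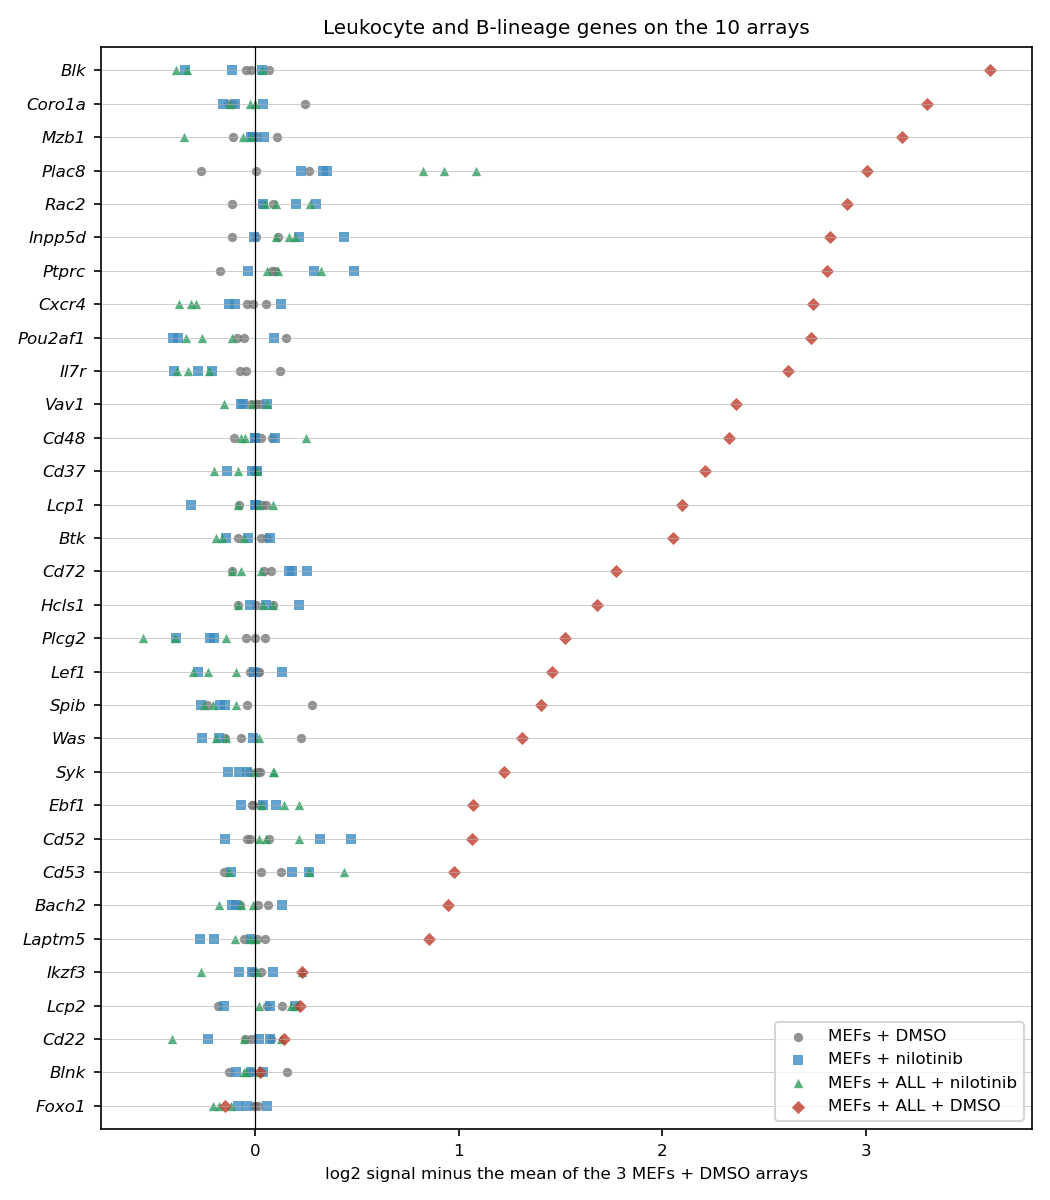
Log2 signal of the 32 genes (rows, ordered by the difference in the MEFs + ALL + DMSO array) on each of the 10 arrays, minus the gene's mean over the 3 MEFs + DMSO arrays (horizontal axis); each point is 1 array, and colour and shape give the group. The MEFs + ALL + DMSO array lies above all others for 30 genes, of which Ikzf3, Cd22 and Lcp2 exceed them by 0.0176 or less. It lies up to 3.61 above the MEFs + DMSO mean. Plac8 is the 1 gene called higher in the MEFs + ALL + nilotinib arrays.

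Promoter windows of RefSeq (GRCm38.p6, from 250 bases before a start site to 50 after it) were found for 27 of the 32 measured genes, with 36 starts. Lyn and Il2rg were not looked up. They were searched on both strands for letters that B-lineage and myeloid factors are known to bind. GAGGAAGT, letters of the PU.1 and ETS kind that Spib also recognises, lay in 5 of the 36 windows (13.9%), those of Inpp5d, Vav1, Cd37, Cd72 and Cd53, against 3.20% of all 32851 windows. The other letters were nearer to the share of all windows: TGTGGT (RUNX) in 16.7% against 16.8%, CAGGTG (E2A) in 22.2% against 20.2%, CCCNNGGG (EBF) in 19.4% against 13.7%, and the octamer ATTTGCAT in 2.78%, that of Blnk alone, against 1.74%. No match overlapped a match of another kind. In 4 genes, each called higher in the MEFs + ALL + DMSO array, the PU.1 and ETS letters lay just before the start, and the 100 bases up to the start are shown for that reason, 5′ to 3′ on the gene's strand, with those letters or their reverse complement in capitals. They lie at chr1:87620212-87620311, plus strand (Inpp5d), chr17:57279000-57279099, plus strand (Vav1), chr7:45238840-45238939, minus strand (Cd37) and chr4:43454627-43454726, minus strand (Cd72).
Inpp5d: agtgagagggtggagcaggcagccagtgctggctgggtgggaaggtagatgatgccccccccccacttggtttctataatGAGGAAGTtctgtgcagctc
Vav1: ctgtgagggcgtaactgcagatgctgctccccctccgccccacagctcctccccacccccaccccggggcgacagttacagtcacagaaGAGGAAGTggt
Cd37: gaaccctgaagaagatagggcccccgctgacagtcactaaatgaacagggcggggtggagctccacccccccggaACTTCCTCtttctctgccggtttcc
Cd72: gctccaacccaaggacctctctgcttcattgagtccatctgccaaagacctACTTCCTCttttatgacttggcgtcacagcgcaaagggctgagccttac
Counted back from the start, the capitals span bases -20 to -13 in Inpp5d, -11 to -4 in Vav1, -25 to -18 in Cd37 and -49 to -42 in Cd72, where Cd37 and Cd72 hold the reverse complement. A match describes the letters and does not show that a factor was bound.

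All values in the following paragraphs are log2 signals in replicate order, differences are on the log2 scale, and levels are not compared between genes. Among the surface genes, Ptprc encodes CD45, the phosphatase that all nucleated blood cells carry and that keeps Src-family kinases active. Its signals were 7.28, 7.30 and 7.03 in MEFs + DMSO, 7.17, 7.69 and 7.49 in MEFs + nilotinib, 7.52, 7.26 and 7.31 in MEFs + ALL + nilotinib and 10.01 in MEFs + ALL + DMSO. The lone co-culture array thus lay far above 9 overlapping ones, and it exceeded the MEFs + DMSO mean by 2.81 (SE 0.20, adjusted p = 5.29e-05), a 7.01-fold difference. Cd48, a ligand of the SLAM family of adhesion receptors, measured 6.23, 6.28 and 6.10 in MEFs + DMSO, 6.20, 6.30 and 6.20 in MEFs + nilotinib, 6.45, 6.13 and 6.16 in MEFs + ALL + nilotinib and 8.53 in MEFs + ALL + DMSO. It was 2.33 higher in the lone array (SE 0.14, adjusted p = 1.66e-05), with the 3 other groups interleaved. Cd37, a tetraspanin of leukocytes, measured 7.54, 7.55 and 7.53 in MEFs + DMSO, 7.40, 7.52 and 7.55 in MEFs + nilotinib, 7.45, 7.55 and 7.33 in MEFs + ALL + nilotinib and 9.75 in MEFs + ALL + DMSO. Its 9 other arrays were the tightest of any gene described here, and the difference was 2.21 (SE 0.10, adjusted p = 4.38e-06). Cd72, an inhibitory B-cell co-receptor, measured 6.28, 6.24 and 6.08 in MEFs + DMSO, 6.37, 6.38 and 6.45 in MEFs + nilotinib, 6.23, 6.08 and 6.13 in MEFs + ALL + nilotinib and 7.97 in MEFs + ALL + DMSO, a difference of 1.77 (SE 0.10, adjusted p = 1.55e-05). In Cd72 the 3 MEFs + nilotinib arrays also lay above the 3 MEFs + DMSO and the 3 MEFs + ALL + nilotinib arrays. Neither difference was called by limma (adjusted p = 0.396 and 0.322), though the unadjusted p was under 0.05 in both.

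The remaining genes of the surface group differed less. Cd52, a small glycoprotein of lymphocytes, measured 7.04, 6.95 and 6.93 in MEFs + DMSO, 6.83, 7.44 and 7.29 in MEFs + nilotinib, 7.19, 7.03 and 6.99 in MEFs + ALL + nilotinib and 8.04 in MEFs + ALL + DMSO. Its difference of 1.07 (SE 0.21, adjusted p = 0.0145) was less than that of Cd72, and MEFs + nilotinib replicates 2 and 3 lay above all MEFs + DMSO arrays. Laptm5, a lysosomal protein that lowers the amount of antigen receptors, measured 10.06, 10.02 and 9.95 in MEFs + DMSO, 9.74, 9.81 and 9.99 in MEFs + nilotinib, 9.98, 10.01 and 9.91 in MEFs + ALL + nilotinib and 10.87 in MEFs + ALL + DMSO, and its difference of 0.85 (SE 0.11, adjusted p = 0.00179) was the smallest one called. Cd53, a pan-leukocyte tetraspanin, ranged from 9.37 to 9.96 on the 9 other arrays and reached 10.50 on the lone one. Its difference was 0.98 (SE 0.22, adjusted p = 0.0303), and it passed neither without MEFs + DMSO replicate 2 (adjusted p = 0.0681) nor without replicate 3 (adjusted p = 0.0765). Cd22, an inhibitory lectin of B cells, ranged from 5.37 to 5.91 on the 9 other arrays and stood at 5.92 on the lone one. It differed by 0.14 (SE 0.20, adjusted p = 0.682) and did not pass.

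The actin regulators of blood cells were all called higher in the lone array. Coro1a encodes coronin 1A, which organises cortical actin in lymphocytes, and measured 7.47, 7.11 and 7.09 in MEFs + DMSO, 7.12, 7.06 and 7.26 in MEFs + nilotinib, 7.20, 7.22 and 7.10 in MEFs + ALL + nilotinib and 10.52 in MEFs + ALL + DMSO. That was the second largest difference of the 32, 3.30 or 9.85-fold (SE 0.15, adjusted p = 4.46e-06), while MEFs + DMSO replicate 1 was the highest of the other 9. Rac2, the hematopoietic Rac GTPase, measured 7.84, 7.63 and 7.78 in MEFs + DMSO, 7.79, 7.95 and 8.05 in MEFs + nilotinib, 7.79, 8.02 and 7.85 in MEFs + ALL + nilotinib and 10.66 in MEFs + ALL + DMSO, and differed by 2.91 (SE 0.14, adjusted p = 4.46e-06). Vav1, the exchange factor that loads Rac with GTP after receptor signalling, measured 6.96, 6.94 and 6.98 in MEFs + DMSO, 6.89, 6.90 and 7.02 in MEFs + nilotinib, 6.80, 6.94 and 7.02 in MEFs + ALL + nilotinib and 9.32 in MEFs + ALL + DMSO. The 9 other arrays of Vav1 spanned 0.21, against a difference of 2.36 (SE 0.10, adjusted p = 3.49e-06).

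Lcp1 encodes L-plastin, an actin-bundling protein, and measured 8.79, 8.77 and 8.66 in MEFs + DMSO, 8.43, 8.74 and 8.74 in MEFs + nilotinib, 8.83, 8.65 and 8.76 in MEFs + ALL + nilotinib and 10.84 in MEFs + ALL + DMSO. Its signal was 2.10 higher in the lone array (SE 0.14, adjusted p = 3.4e-05), and MEFs + nilotinib replicate 1 was the lowest of the 10. Hcls1 encodes HS1, the leukocyte form of cortactin, and measured 7.57, 7.48 and 7.39 in MEFs + DMSO, 7.45, 7.53 and 7.69 in MEFs + nilotinib, 7.39, 7.57 and 7.52 in MEFs + ALL + nilotinib and 9.16 in MEFs + ALL + DMSO, a difference of 1.68 (SE 0.12, adjusted p = 5.49e-05). Was, the Wiskott-Aldrich syndrome protein that activates Arp2/3, measured 7.01, 6.93 and 7.30 in MEFs + DMSO, 6.90, 6.82 and 7.07 in MEFs + nilotinib, 6.89, 7.10 and 6.94 in MEFs + ALL + nilotinib and 8.39 in MEFs + ALL + DMSO. At 1.31 (SE 0.16, adjusted p = 0.00145) it had the smallest difference of the actin regulators, with MEFs + DMSO replicate 3 above the other 8 arrays outside the lone one.

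In the kinase and adaptor group the genes were split. Blk, a Src-family kinase of the B lineage, measured 6.08, 6.19 and 6.10 in MEFs + DMSO, 6.01, 5.78 and 6.16 in MEFs + nilotinib, 5.73, 6.15 and 5.79 in MEFs + ALL + nilotinib and 9.73 in MEFs + ALL + DMSO. It showed the largest difference of all 32 genes, 3.61 or 12.2-fold (SE 0.19, adjusted p = 7.85e-06), with the other 9 arrays at 6.19 or less. Syk, the kinase recruited to phosphorylated receptor tails, measured 7.34, 7.40 and 7.39 in MEFs + DMSO, 7.30, 7.34 and 7.24 in MEFs + nilotinib, 7.47, 7.46 and 7.37 in MEFs + ALL + nilotinib and 8.60 in MEFs + ALL + DMSO. Although its difference was lower, at 1.22 (SE 0.08, adjusted p = 3.84e-05), its 9 other arrays lay within 0.23 of each other. Btk, the Tec-family kinase that is lost in X-linked agammaglobulinemia, measured 5.93, 5.96 and 5.82 in MEFs + DMSO, 5.76, 5.87 and 5.97 in MEFs + nilotinib, 5.85, 5.74 and 5.71 in MEFs + ALL + nilotinib and 7.95 in MEFs + ALL + DMSO, and differed by 2.05 (SE 0.11, adjusted p = 9.9e-06). The 3 other groups overlapped for Btk.

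Plcg2, the phospholipase that makes calcium-releasing inositol phosphates in B cells, measured 7.42, 7.38 and 7.33 in MEFs + DMSO, 7.17, 6.99 and 7.16 in MEFs + nilotinib, 6.82, 7.23 and 6.98 in MEFs + ALL + nilotinib and 8.90 in MEFs + ALL + DMSO. The lone array stood 1.52 above MEFs + DMSO (SE 0.15, adjusted p = 0.000364), and the 6 nilotinib-treated arrays all lay below the 3 MEFs + DMSO arrays. Inpp5d encodes SHIP1, the phosphatase that opposes PI3-kinase, and measured 7.69, 7.58 and 7.46 in MEFs + DMSO, 7.57, 7.79 and 8.01 in MEFs + nilotinib, 7.77, 7.74 and 7.68 in MEFs + ALL + nilotinib and 10.40 in MEFs + ALL + DMSO. It was the second largest difference of this group, 2.82 (SE 0.16, adjusted p = 1.3e-05). By contrast, the adaptor genes did not pass: Blnk, which links Syk to phospholipase C, stood at 6.09 in the lone array within the 5.94 to 6.23 of the others, a difference of 0.02 (SE 0.12, adjusted p = 0.917). Lcp2 (SLP-76, its counterpart in T and myeloid cells) stood at 7.26 against 6.86 to 7.25, a difference of 0.22 (SE 0.16, adjusted p = 0.42).

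The receptors that respond to stromal factors were among the higher genes. Cxcr4, the receptor of the stromal chemokine CXCL12, measured 8.16, 8.25 and 8.19 in MEFs + DMSO, 8.07, 8.10 and 8.33 in MEFs + nilotinib, 7.83, 7.91 and 7.88 in MEFs + ALL + nilotinib and 10.94 in MEFs + ALL + DMSO. Its difference of 2.74 (SE 0.11, adjusted p = 2.65e-06) had the lowest adjusted p of the 32 genes, and the 3 MEFs + ALL + nilotinib arrays were the lowest of the 10. Il7r, the alpha chain of the interleukin-7 receptor, measured 5.96, 5.77 and 5.80 in MEFs + DMSO, 5.56, 5.44 and 5.62 in MEFs + nilotinib, 5.61, 5.45 and 5.51 in MEFs + ALL + nilotinib and 8.46 in MEFs + ALL + DMSO, and was 2.62 higher in the lone array (SE 0.12, adjusted p = 3.64e-06). In Il7r the 6 arrays with nilotinib all lay below the 3 MEFs + DMSO arrays.

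Of the transcription factors, Pou2af1, the B-cell coactivator OBF-1 of octamer-binding proteins, measured 6.77, 6.73 and 6.97 in MEFs + DMSO, 6.44, 6.42 and 6.91 in MEFs + nilotinib, 6.48, 6.71 and 6.56 in MEFs + ALL + nilotinib and 9.55 in MEFs + ALL + DMSO. It differed by 2.73 (SE 0.20, adjusted p = 5.8e-05), the largest value of the factors. Lef1, a Wnt-pathway factor of B and T precursors, measured 7.83, 7.83 and 7.79 in MEFs + DMSO, 7.80, 7.53 and 7.95 in MEFs + nilotinib, 7.58, 7.51 and 7.72 in MEFs + ALL + nilotinib and 9.27 in MEFs + ALL + DMSO, a difference of 1.46 (SE 0.15, adjusted p = 0.00048). Spib, an ETS factor close to PU.1, measured 5.99, 6.19 and 6.51 in MEFs + DMSO, 6.05, 5.96 and 6.08 in MEFs + nilotinib, 6.13, 6.02 and 5.97 in MEFs + ALL + nilotinib and 7.63 in MEFs + ALL + DMSO. Its difference was 1.40 (SE 0.17, adjusted p = 0.0014), and MEFs + DMSO replicate 3 was the highest of the other 9.

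Ebf1, which commits precursors to the B lineage and is also made in mesenchymal cells, measured 9.10, 9.06 and 9.07 in MEFs + DMSO, 9.18, 9.12 and 9.01 in MEFs + nilotinib, 9.22, 9.10 and 9.29 in MEFs + ALL + nilotinib and 10.15 in MEFs + ALL + DMSO. The lone array was 1.07 higher (SE 0.10, adjusted p = 0.000296) than arrays that lay within 0.28 of each other. Bach2, a repressor that holds B cells before the plasma cell stage, measured 6.99, 6.90 and 7.04 in MEFs + DMSO, 6.88, 6.86 and 7.10 in MEFs + nilotinib, 6.79, 6.96 and 6.90 in MEFs + ALL + nilotinib and 7.92 in MEFs + ALL + DMSO, and its difference was 0.95 (SE 0.12, adjusted p = 0.00181). Ikzf3, the Ikaros-family factor Aiolos, reached 6.24 in the lone array and 5.74 to 6.24 in the others, and its 0.23 (SE 0.16, adjusted p = 0.401) did not pass. Foxo1, a forkhead factor that B precursors and many other cells use, had the 1 negative difference of the 32, -0.15 (SE 0.09, adjusted p = 0.289), and did not pass: 8.65 in the lone array against 8.60 to 8.86.

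The genes outside these roles were both high. Mzb1, an endoplasmic reticulum protein that helps to assemble immunoglobulin, measured 6.70, 6.59 and 6.80 in MEFs + DMSO, 6.74, 6.68 and 6.68 in MEFs + nilotinib, 6.34, 6.67 and 6.64 in MEFs + ALL + nilotinib and 9.87 in MEFs + ALL + DMSO. This was a 9.04-fold difference, 3.18 (SE 0.14, adjusted p = 3.64e-06), over 9 arrays of which MEFs + ALL + nilotinib replicate 1 was the lowest. Plac8, a small cysteine-rich protein of placenta and of blood cells, measured 7.45, 7.18 and 6.92 in MEFs + DMSO, 7.54, 7.41 and 7.51 in MEFs + nilotinib, 8.27, 8.11 and 8.01 in MEFs + ALL + nilotinib and 10.19 in MEFs + ALL + DMSO. Here the groups were ordered without overlap from MEFs + DMSO and MEFs + nilotinib, which overlapped each other, to MEFs + ALL + nilotinib and then the lone array, 3.01 above MEFs + DMSO (SE 0.19, adjusted p = 2.06e-05).

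With nilotinib-treated ALL cells above the MEFs, Plac8 was the 1 gene of the 32 called. It was 0.94 higher than in MEFs + DMSO (SE 0.13, adjusted p = 0.0292), with 3 of 3 arrays above the MEFs + DMSO arrays, and 0 genes were called lower. Of all probesets, 0.503% were called higher and 0.124% lower in this comparison. The median of the 32 differences was -0.05, beside -0.0042 over all probesets, and 5 genes (15.6%) had an unadjusted p under 0.05, a share near the 16.2% of all probesets that did. These were Plac8 and, with lower signals and no call, Plcg2 (-0.36, adjusted p = 0.164), Cxcr4 (-0.33, adjusted p = 0.114), Il7r (-0.32, adjusted p = 0.131) and Foxo1 (-0.17, adjusted p = 0.226). The groups did not overlap for Plac8, higher, and for 6 genes with lower signals, those same 4 with Lef1 and Pou2af1. Among all probesets 14.1% were separated upward and 10.6% downward. The call for Plac8 was lost without any of the MEFs + ALL + nilotinib arrays (adjusted p = 0.124, 0.0611 and 0.0820 without replicates 1, 2 and 3), without MEFs + DMSO replicate 2 (0.131) or 3 (0.0912), and without MEFs + nilotinib replicate 2 (0.0556) or 3 (0.0609), while its difference stayed between 0.81 and 1.01 in these fits.

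Against MEFs + nilotinib, which holds the drug constant, limma called 0 of the 32 genes in MEFs + ALL + nilotinib, where it called 0.149% of all probesets higher and 0.0366% lower. The lowest adjusted p was that of Plac8, 0.148, at a difference of 0.64. An unadjusted p under 0.05 was found for 5 of the 32 genes (15.6%) and for 9.27% of all probesets, with Syk (0.14) also higher and Cxcr4 (-0.29), Cd72 (-0.26) and Foxo1 (-0.15) lower. The groups were separated upward for 2 genes, Plac8 and Syk, and downward for 4, Cxcr4, Cd72, Foxo1 and Mzb1, against 7.8% and 6.62% of all probesets. The 32 differences ran from -0.29 to 0.64. The comparisons with MEFs + DMSO and with MEFs + nilotinib share the MEFs + ALL + nilotinib arrays.

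**Figure D2:**
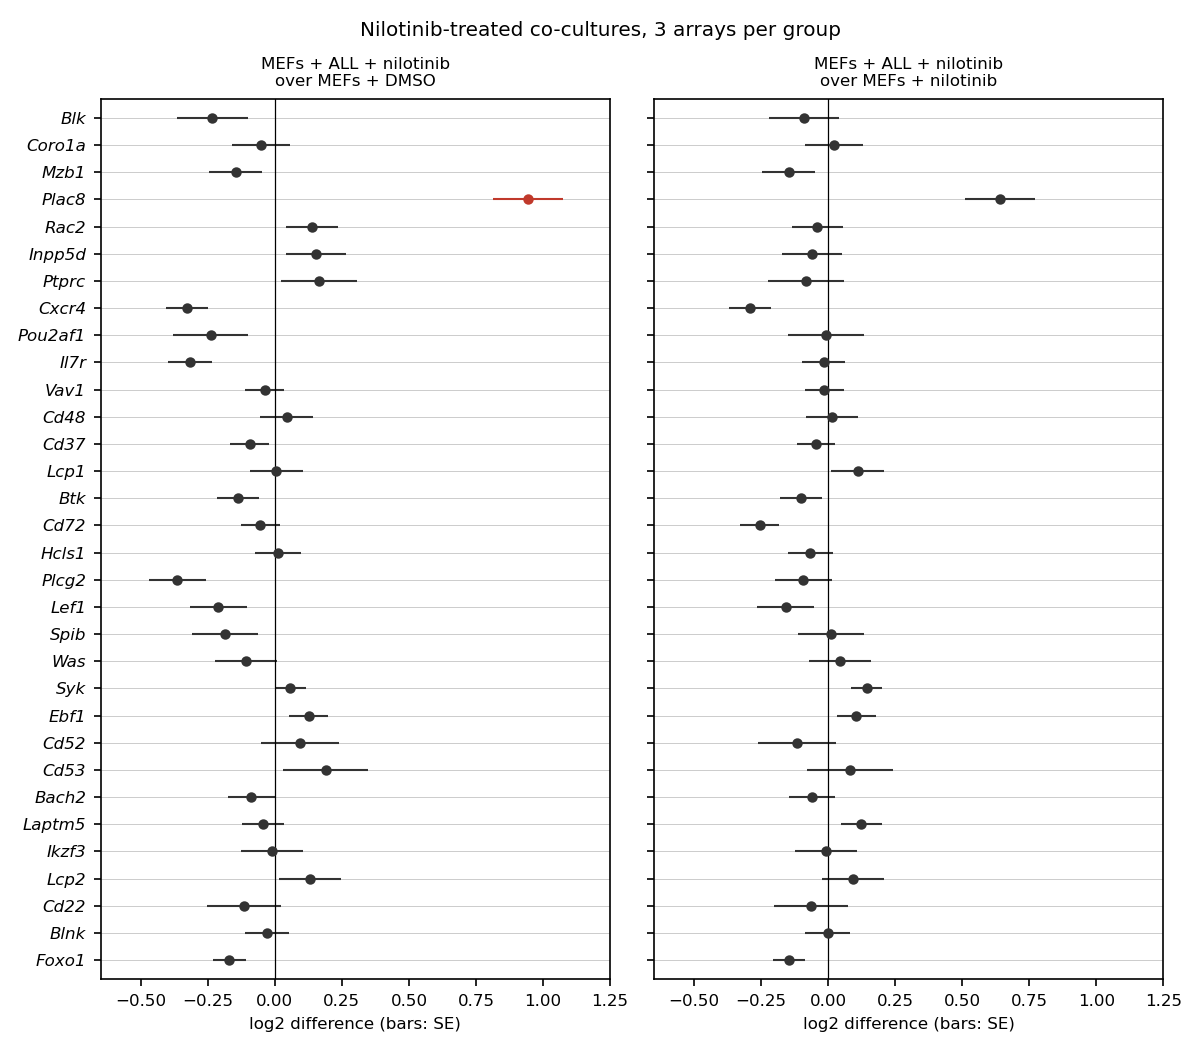
Log2 differences with limma standard errors (bars) for the 32 genes, in the order of the plot of the 10 arrays: MEFs + ALL + nilotinib over MEFs + DMSO on the left and over MEFs + nilotinib on the right (3 arrays per group). Plac8 (red, the 1 gene called) stands at 0.94 on the left and 0.64, without a call, on the right, and the other genes lie between -0.36 and 0.19.

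Nilotinib without ALL cells gave 0 calls by limma among the 32 genes and 0% among all probesets, in either direction. The lowest adjusted p among the 32 was that of Il7r, 0.359, at a difference of -0.30. An unadjusted p under 0.05 was found for 4 genes (12.5%), near the 11.2% of all probesets: Il7r, Plcg2 (-0.27), Plac8 (0.30) and Cd72 (0.20). MEFs + nilotinib and MEFs + DMSO did not overlap for 1 gene with higher signals, Cd72, and 3 with lower, Il7r, Plcg2 and Syk, where 13.6% of all probesets were separated upward and 7.05% downward. Of the 3 genes with the most negative differences in MEFs + ALL + nilotinib over MEFs + DMSO, Cxcr4 differed by -0.04 with the drug alone, against -0.30 for Il7r and -0.27 for Plcg2.

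Set against the lone MEFs + ALL + DMSO array, MEFs + ALL + nilotinib was called lower for 26 of the 32 genes and higher for 0, beside 3.76% lower and 0.582% higher of all probesets. The largest differences were those of Blk (-3.84), Coro1a (-3.35), Mzb1 (-3.32) and Cxcr4 (-3.07), and Plac8 differed by -2.06. Cd53, which was called over MEFs + DMSO, was not called here, at -0.79 (SE 0.22, adjusted p = 0.111). The difference between MEFs with and without ALL cells under DMSO was tested against the one under nilotinib as an interaction. This interaction was called for the same 26 genes, each larger under DMSO (3.55% of all probesets larger, 0.399% smaller). It ran from 0.73 for Laptm5 to 3.70 for Blk among them, and the calls of Cd52 and Laptm5 were lost in some fits without 1 array. Both of these comparisons rest on the lone array as well, and they share it with the comparison over MEFs + DMSO.

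Other lists of leukocyte and lineage genes were read in the same way, as counts and medians, and they too were chosen with results of these arrays known. In MEFs + ALL + DMSO over MEFs + DMSO, 35 of 45 other leukocyte and B-lineage signalling genes were called higher and 0 lower, with a median of 1.28. The largest were Cd69, an early activation antigen (4.26), and Myb, a factor of blood precursors (4.25). Of 10 measured genes of the pre-B receptor and of immunoglobulin recombination, 9 were called higher, with a median of 2.41, led by the surrogate light chain genes Igll1 (4.18) and Vpreb1 (2.99). Of all probesets, 6.67% were called higher and 3.59% lower in MEFs + ALL + DMSO over MEFs + DMSO. In MEFs + ALL + nilotinib over MEFs + DMSO, 1 of the 45 and 0 of the 10 were called, with medians of 0.0014 and -0.11. There, 0.503% of all probesets were called higher and 0.124% lower.

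Markers of other blood cells were mostly not called in the lone array over MEFs + DMSO, where 6.67% of all probesets were called higher and 3.59% lower. Of 14 macrophage markers 0 were called higher and 1 lower (Marco, -0.67; Mrc1 differed by 0.40), and of 10 neutrophil markers 0 were called, with values of -0.47 for Elane and -0.39 for S100a9. Of 14 T and NK cell markers 1 was called higher (Gzma, 0.71) and 2 lower (Cd3e, -0.64, and Cd28, -0.58). Of 7 erythroid and platelet markers 1 was called higher (Ppbp, 0.85), and Klf1 differed by -0.40. Unlike most of the 32 genes, Ppbp was also called higher by limma in MEFs + ALL + nilotinib. There it differed by 1.05 from MEFs + DMSO (adjusted p = 0.0308) and by 1.12 from MEFs + nilotinib (adjusted p = 0.0382). Among the 12 fibroblast markers 1 was called higher (Lum, 0.65) and 1 lower (Col1a2, -0.66), and Col1a1 differed by -0.72. Averaged over each list, the lone array lay 1.77 above the MEFs + DMSO mean for the 32 genes, 2.15 for the pre-B genes and 1.34 for the other leukocyte genes, against -0.05 for the macrophage, -0.11 for the T and NK cell, -0.25 for the neutrophil and -0.16 for the fibroblast markers. The part of ALL cell RNA in these signals was not tested. These shifts do not show the starting level. The mean log2 signal of the macrophage markers was 8.30, 8.28 and 8.19 in MEFs + DMSO, where the array medians were 6.99. Whether the feeder layer held macrophages was not tested.

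**Figure D3:**
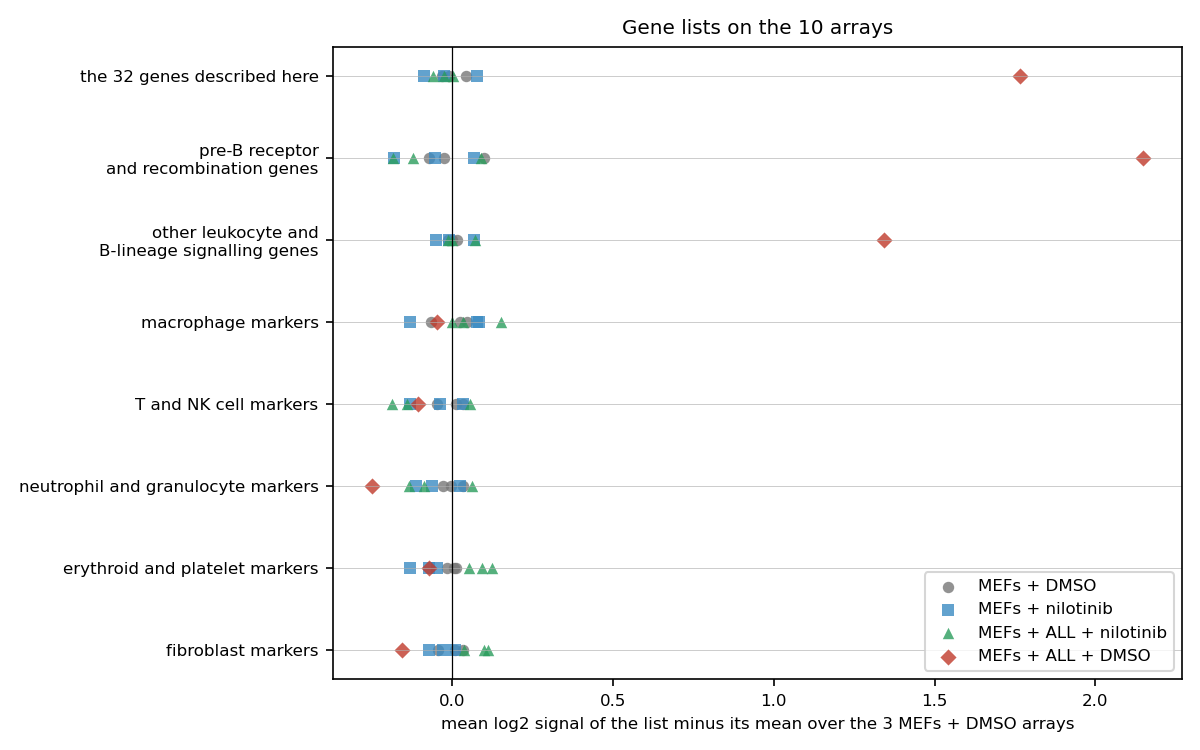
Mean log2 signal of each gene list (rows) on each of the 10 arrays, minus its mean over the 3 MEFs + DMSO arrays; each point is 1 array, and colour and shape give the group. The MEFs + ALL + DMSO array lies 1.34 to 2.15 above MEFs + DMSO for the 3 leukocyte and B-lineage lists, and between -0.25 and -0.05 for the markers of other blood cells and of fibroblasts.

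For 16 of the 32 genes, 23 relatives of the same protein family were measured, such as the widely expressed Rac1 for the blood-cell Rac2. Not all of the 16 are made by blood cells alone, Foxo1 and Ebf1 among them. In the lone array over MEFs + DMSO, 1 relative was called higher and 2 lower, beside 6.67% higher and 3.59% lower of all probesets. The median of the 23 relatives was -0.10. Rac1 differed by 0.07 beside 2.91 for Rac2, and Pls3 (T-plastin) by -0.11 beside 2.10 for Lcp1. Cttn, the widely expressed cortactin, differed by -0.10 beside 1.68 for Hcls1, and Plcg1 by -0.15 beside 1.52 for Plcg2. The relative called higher was Vav3, at 1.18 (adjusted p = 9.35e-05) beside 2.36 for Vav1 and 0.10 for Vav2. The relatives called lower were Yes1 of the Src family (-0.47, adjusted p = 0.0265), where Blk stood at 3.61, and Laptm4b (-0.37, adjusted p = 0.0294), where Laptm5 stood at 0.85. The relatives named here were chosen after their values were seen. Those not called ran from -0.36 for Wasl to 0.21 for Fyn. Differences between a gene and its relative were not tested.

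**Figure D4:**
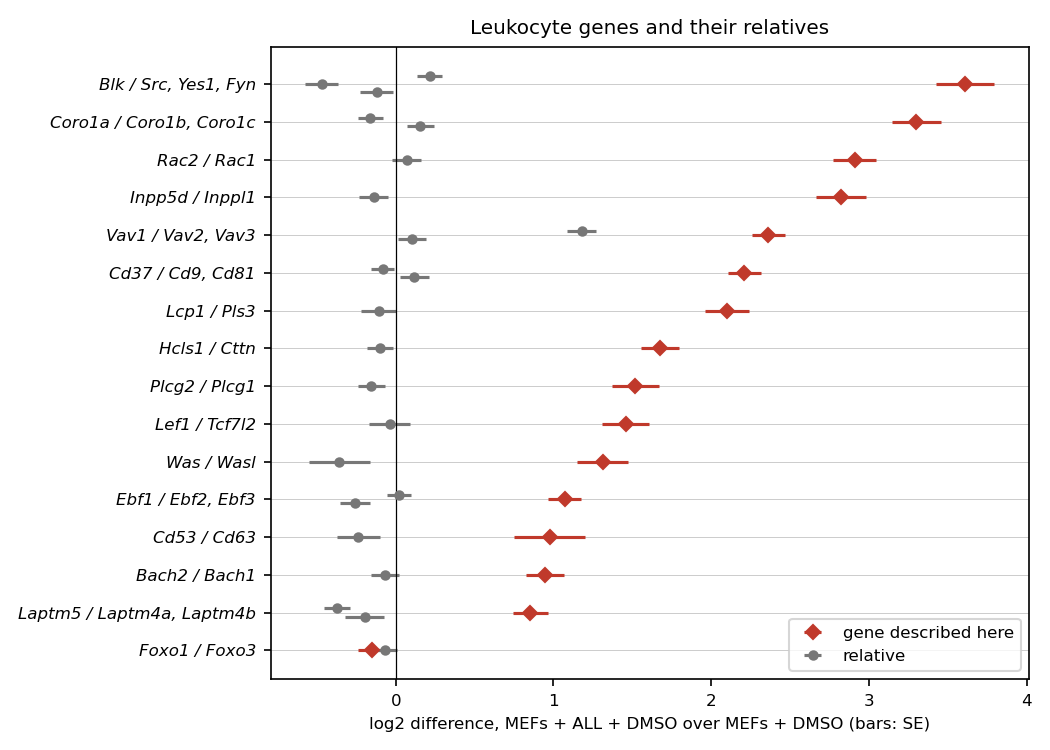
Log2 difference of MEFs + ALL + DMSO (1 array) over MEFs + DMSO (3 arrays), with limma standard errors (bars), for 16 of the genes (red) and their 23 relatives (grey), each row a gene and its relatives. The relatives lie between -0.47 and 0.21 apart from Vav3 at 1.18, and the genes between 0.85 and 3.61 apart from Foxo1 at -0.15.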

How the data were processed

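RNA of 10 cultures was measured on Mouse Gene 1.0 ST arrays, with 1 array per dish. The values used are the log2 signals that the authors deposited, named RMA-normalized in their supplementary legend and processed with Partek (version not given in the sources used here). A linear model with 4 group means and 1 spread over all 10 arrays was fitted by limma 3.58.1 (lmFit, eBayes) under R 4.3.3, with Benjamini-Hochberg adjustment over all 35557 probesets and a threshold of 0.05. The replicates are separate dishes, so p-values measure the spread between dishes of the groups with replicates. The MEFs + ALL + DMSO group, with 1 array, adds nothing to that spread. Precision is limited by how few arrays there are. Of the probesets, 21789 carry 1 gene symbol by the platform annotation, 1621 several and 12147 none. The members and all lists were chosen with earlier results of these data known. Signals on every array are printed for the 14 genes with the largest difference in MEFs + ALL + DMSO over MEFs + DMSO and for all genes called in another comparison, and ranges for the rest; of other lists, the 2 genes with the largest difference and, chosen after their values were seen, Lum, Cd28 and the relatives. The value of 1 other leukocyte gene is not reported here. On simulated arrays of this layout with 35557 probesets, limma recovered 14% of probesets changed by 0.5, 60% of those changed by 1 and 94% of those changed by 3 on the log2 scale in MEFs + ALL + DMSO over MEFs + DMSO, and 44%, 84% and 100% in MEFs + ALL + nilotinib over MEFs + DMSO. Alternatives were array weights, a trended and robust variance, quantile normalization, a filter on dim probesets, fewer arrays in the fit and a replicate block. The mean over a gene's probesets was also run, but with 1 probeset per gene it repeats the main fit.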

Additional observations from a re-analysis of the deposited data

Results flagged for a closer look

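The interaction term in limma was called for 26 of the 32 genes (adjusted p from 9.88e-06 for Cxcr4 to 0.0385 for Cd52). It sets the difference between MEFs with and without ALL cells under DMSO against the same difference under nilotinib. The call of Cd52 was lost under quantile normalization (adjusted p = 0.0726) and in 8 of the 9 fits that left out 1 array (adjusted p = 0.0575 to 0.0922), and that of Laptm5 in 3 of them (adjusted p = 0.0523 to 0.0535), without MEFs + ALL + nilotinib replicate 3 and without MEFs + DMSO replicates 2 and 3. Each of the 26 was larger under DMSO, and each rests on the 1 MEFs + ALL + DMSO array. In that array, RNA of ALL cells that reached the dish cannot be told apart from RNA made by the MEFs. On the log2 scale the actin regulators had interaction values of 3.28 (Coro1a), 2.95 (Rac2), 2.38 (Vav1), 1.99 (Lcp1), 1.74 (Hcls1) and 1.27 (Was). The kinase, phosphatase and phospholipase genes had 3.70 (Blk), 2.88 (Inpp5d), 2.15 (Btk), 1.61 (Plcg2) and 1.08 (Syk). For the surface group the values were 2.89 (Ptprc), 2.31 (Cd48), 2.26 (Cd37), 2.03 (Cd72), 1.18 (Cd52) and 0.73 (Laptm5). For the receptors they were 3.03 (Cxcr4) and 2.64 (Il7r). The transcription factor genes had 2.74 (Pou2af1), 1.62 (Lef1), 1.39 (Spib), 1.01 (Bach2) and 0.97 (Ebf1), and Mzb1 and Plac8 had 3.32 and 2.37. Groups of 3 arrays and of 1 are too small for a search for outlying arrays, which was not run.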

How the results depend on the processing

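The 3 counts that rest on the MEFs + ALL + DMSO array kept their direction under all settings run: 26 to 27 genes called over MEFs + DMSO, 22 to 26 in MEFs + ALL + nilotinib over MEFs + ALL + DMSO, and 24 to 26 for the interaction. Cd52, Laptm5, Bach2, Ebf1 and Cd53 were the genes lost in some of them (Cd52 in MEFs + ALL + nilotinib over MEFs + ALL + DMSO at an adjusted p of 0.0552 to 0.0902), and no value reversed. The count of MEFs + ALL + nilotinib over MEFs + DMSO, 1 gene (Plac8), changed more. It was 3 with limma array weights, which gave MEFs + ALL + nilotinib replicate 2 a weight of 0.277 and added Cxcr4 (-0.35, adjusted p = 0.0385) and Plcg2 (-0.44, adjusted p = 0.0268) as lower. It was 0 with only the groups compared in the fit (Plac8 adjusted p = 0.0813) and ran from 0 to 1 as each array was left out. Deviations of same-numbered arrays correlated at -0.29 to 0.24, and those of arrays with unlike numbers at -0.26 to 0.39. With 3 arrays per group this cannot settle whether the replicate numbers pair dishes. With the number as a block and without the MEFs + ALL + DMSO array, the count of MEFs + ALL + nilotinib over MEFs + DMSO was 0 (Plac8 adjusted p = 0.0723). The cause of these changes was not tested. Shares of all probesets called with array weights and under the other alternatives are not given here, so these counts stand without a background. Each measured gene has 1 probeset, so the mean over probesets changed nothing, and the filter on dim probesets kept all 32 genes. The lone array cannot be left out of the comparisons that rest on it.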
